A study of Mus musculus with 8 samples.

Results

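The genes described here encode 10 subunits of the COMPASS family, the protein complexes that methylate lysine 4 of histone H3 (H3K4). They are Wdr5, Rbbp5, Ash2l, Dpy30, Men1, Psip1, Cxxc1, Wdr82, Hcfc1 and Paxip1, chosen by gene symbol from a table of 35976 symbols. All 10 were present, and all 10 passed the filter on low counts that left 16847 genes for testing. Despite the working name of shared subunits, 4 of them (Wdr5, Rbbp5, Ash2l and Dpy30) belong to every complex of the family, and the others belong to some of the complexes.

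The RNA came from full-grown mouse oocytes, the ovarian germ cells that have finished growing and wait in meiotic arrest. There were 4 groups of 2 libraries, each library made from a pool of about 20 oocytes whose zona pellucida had been removed. In the H2A.Z line, control oocytes (labelled wild type) were set against oocytes labelled as a double knockout (DKO) of H2A.Z.1 and H2A.Z.2, the 2 genes for the histone variant H2A.Z. In the Mll2 line, wild-type (WT) oocytes were set against Mll2 knockout (KO) oocytes, and Mll2 is the older name of Kmt2b, an H3K4 methyltransferase. The sources used here give no strain, age, allele or Cre driver. They do not say whether the 2 libraries of a group came from separate animals, so the p-values reflect the spread between libraries, which may be technical.

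COMPASS complexes are built around 1 of 6 methyltransferases: SET1A, SET1B and MLL1 to MLL4. A core of WDR5, RBBP5, ASH2L and DPY30 holds the catalytic domain in its active form, and further subunits direct each complex to its places on chromatin. In growing mouse oocytes MLL2 lays down much of the H3K4 trimethylation found outside active promoters, and CFP1, the product of Cxxc1, is also needed for normal H3K4 trimethylation. MLL1, MLL2 and CFP1 carry a CXXC zinc finger, which binds DNA at CG dinucleotides that are not methylated.

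Because of that binding, the CG dinucleotides before the start of 4 members are shown here in capitals. The members are 3 that were higher and 1 that was lower in the libraries labelled DKO, each with 220 bases on the strand of the gene that end 31 bases before a RefSeq transcript start (build GRCm38.p6, the same assembly as mm10). Each sequence runs from 5′ to 3′. They are Dpy30 at chr17:74316464-74316683 (minus strand), Wdr82 at chr9:106170679-106170898 (plus), Wdr5 at chr2:27514897-27515116 (plus) and Men1 at chr19:6334729-6334948 (plus).
Dpy30: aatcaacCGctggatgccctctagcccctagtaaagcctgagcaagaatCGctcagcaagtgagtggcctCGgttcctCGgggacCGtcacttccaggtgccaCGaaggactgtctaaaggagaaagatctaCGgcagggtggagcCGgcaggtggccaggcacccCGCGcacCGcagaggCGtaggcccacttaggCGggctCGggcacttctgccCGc
Wdr82: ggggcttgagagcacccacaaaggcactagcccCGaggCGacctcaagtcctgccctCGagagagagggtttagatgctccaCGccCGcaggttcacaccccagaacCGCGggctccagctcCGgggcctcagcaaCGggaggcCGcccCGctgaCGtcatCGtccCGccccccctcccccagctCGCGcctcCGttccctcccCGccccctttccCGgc
Wdr5: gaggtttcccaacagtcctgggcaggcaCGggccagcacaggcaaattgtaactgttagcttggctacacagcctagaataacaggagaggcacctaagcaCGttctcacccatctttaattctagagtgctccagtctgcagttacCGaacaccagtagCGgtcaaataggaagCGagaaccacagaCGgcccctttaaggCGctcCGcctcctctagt
Men1: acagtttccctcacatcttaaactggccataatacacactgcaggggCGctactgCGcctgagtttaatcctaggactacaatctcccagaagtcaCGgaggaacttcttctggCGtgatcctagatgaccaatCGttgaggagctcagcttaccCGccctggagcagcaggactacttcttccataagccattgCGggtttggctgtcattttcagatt

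None of the 4 stretches overlapped an annotated exon in GENCODE M21. The Dpy30 stretch lay within the annotated span of the gene, in an intron of a longer transcript, and the others lay in no gene. Over the RefSeq window of 300 bases around the same start, Dpy30 held 30 CG dinucleotides, Wdr82 28, Wdr5 22 and Men1 11. The median of all 32851 such windows was 7, with quartiles of 3.0 and 20.0. As many or more CG dinucleotides were found in 11.7% of windows for Dpy30, 14.2% for Wdr82, 23.1% for Wdr5 and 41.4% for Men1. Both genes with several RefSeq starts varied among them: the other Dpy30 windows held 1, 34 and 39 CG dinucleotides, and the other 2 Men1 windows held 16 each (33% of windows). The Dpy30 window with 1 lies at the 5′ end of the annotated gene span, and the printed start lies inside that span. The printed Men1 window, at the 5′ end of its gene span, held the fewest for that gene. The order of the 4 members by CG dinucleotides thus depends on the starts chosen. Of the other members, Paxip1 held 28, Hcfc1 21 and Rbbp5 16, and 7 of the 10 members had a window (all but Ash2l, Psip1 and Cxxc1). The files used here hold no measure of binding or DNA methylation at these starts.

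Total counts ran from 20309233 to 30087863 per library, and the members' raw counts ran from 131 (Hcfc1 in an H2A.Z control library) to 16372 (Dpy30 in an Mll2 KO library). Levels are given as normalised counts (CPM), which are counts scaled by library total and by a trimmed-mean factor. The targeted genes were read first. Kmt2b was at 41.9 and 42.4 CPM in the Mll2 WT libraries, against 8.73 and 9.28 CPM in Mll2 KO, so it fell under its own label. H2afz (H2A.Z.1) was at 23.9 and 29.97 CPM in H2A.Z controls, against 322 and 317 CPM under the DKO label. H2afv (H2A.Z.2) was at 108 and 107 CPM in the same controls, against 285 and 294 CPM under that label. Both genes were thus higher, not lower, under that label, and a count per gene does not show which exons the reads came from. The mutant libraries of this line are therefore called the libraries labelled DKO, and each direction drawn from them rests on that label. In the Mll2 line H2afz also read higher in the mutant, at 7.04 and 7.09 CPM in WT against 19.4 and 14.99 CPM in KO. That log2 difference of 1.28 passed (edgeR adjusted p 1.2e-05). H2afv was at 86.8 and 88.2 CPM in WT, against 93.7 and 106 CPM in KO, and did not pass (edgeR adjusted p 0.165). The 2 Mll2 KO libraries were the least alike of any pair, with a chi-square per degree of freedom of 39.3 across genes against 4.74 to 12.8 in the other groups.

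All 12 oocyte markers were above 1 CPM in each group, with summed levels of 17936 to 24258 CPM. Of these, Ooep (log2 difference 0.49) and Figla (0.38) were higher under the DKO label, and Zp2 (-0.82) and Kit (-0.54) were lower in Mll2 KO. The summed level of 12 granulosa and cumulus cell markers was 94.6 to 96.9 CPM in H2A.Z controls against 125 to 127 CPM under the DKO label, and 91.9 to 94.2 CPM in Mll2 WT against 102.0 to 102.3 CPM in Mll2 KO. Most of each sum was Cyp19a1 (27.9 to 59.1 CPM) and Nr5a2 (29.1 to 58.2 CPM). Of the 9 markers tested, 2 were higher and 2 lower under the DKO label, beside 30.9% of all genes called. In Mll2 KO 3 were higher and 2 lower, beside 30.6% of all genes called. Fshr, the receptor gene of follicle-stimulating hormone, was at 1.29 and 0.598 CPM in H2A.Z controls and 18.7 and 18.9 CPM under the DKO label, and at 0.992 and 0.594 CPM in Mll2 WT against 7.25 and 7.70 CPM in Mll2 KO. Nr5a2 was also higher in both (0.39 and 0.75), Gja1 was lower under the DKO label (-3.14) and higher in Mll2 KO (2.60), Fst was lower under the DKO label (-3.27), and Cyp19a1 (-0.78) and Kitl (-0.83) were lower in Mll2 KO, each called by edgeR. Amh, Amhr2 and Foxl2 did not exceed 0.24 CPM in any library. Summed levels of 6 theca and stroma markers were at most 6.30 CPM in each library, with Star lower and Dcn higher in Mll2 KO. The 8 blood, immune and endothelial markers summed to 21.4 to 23.1 CPM in H2A.Z controls against 28.8 to 31.98 CPM under the DKO label, and to 34.96 to 35.97 CPM in Mll2 WT against 35.3 to 42.04 CPM in Mll2 KO. Most of that sum was Pecam1 (18.4 to 40.8 CPM), which was higher under the DKO label (0.56, edgeR adjusted p 0.00787), Cd68 was lower in Mll2 KO (-1.01), and Hbb-bs, Hba-a1 and Cdh5 were at 0 in all 8 libraries. The part of other cells in the differences below was not tested.

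**Figure D1:**
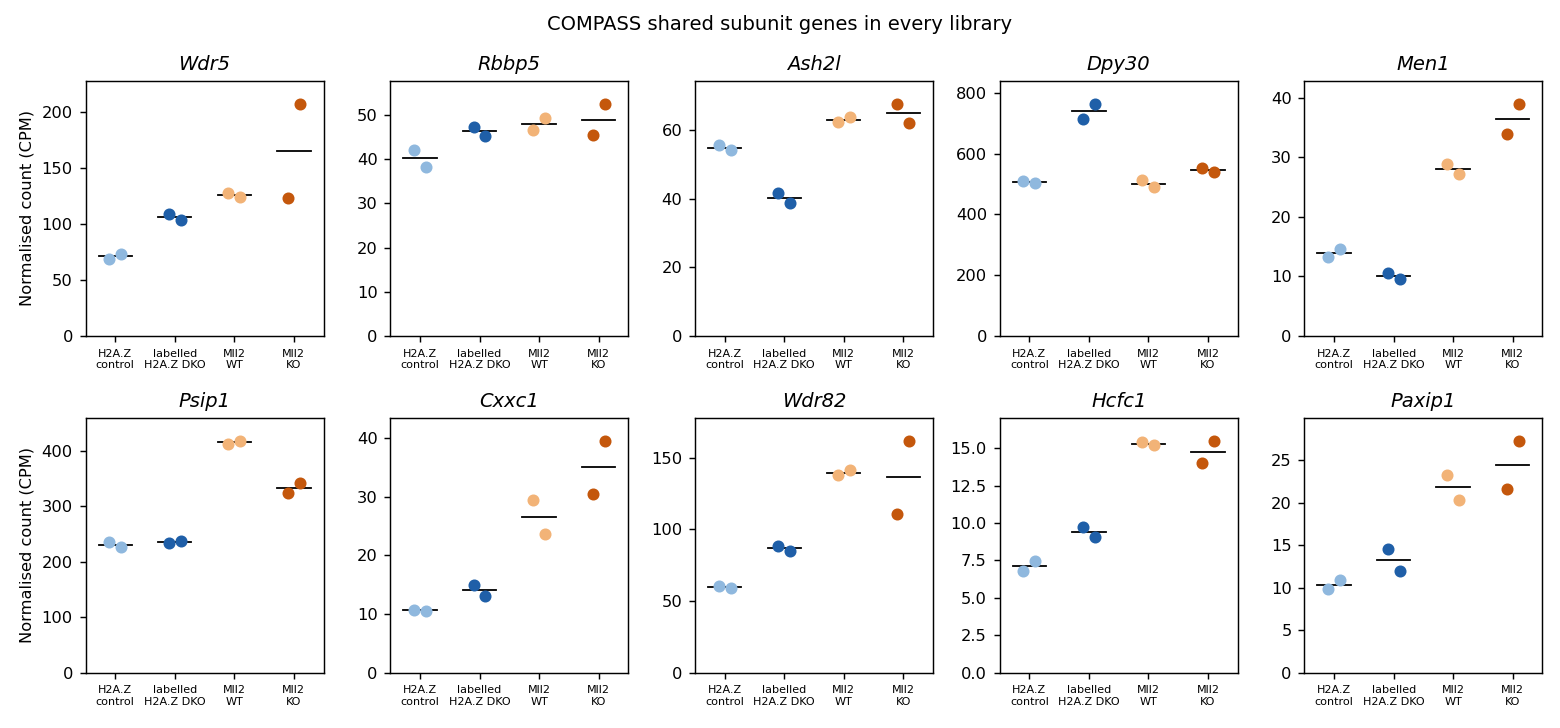
Normalised counts (CPM, vertical axis from 0 in each panel) of the 10 genes in each of the 8 libraries. Points are libraries and horizontal lines are group means. Dpy30, Wdr82 and Wdr5 lie higher and Ash2l and Men1 lower in the libraries labelled DKO than in their controls, and the 2 Mll2 KO libraries lie far apart for Wdr5 (123 and 207 CPM) and Wdr82 (111 and 162 CPM).

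In the libraries labelled DKO, subunits of the same complexes moved in opposite directions. Dpy30, Wdr82 and Wdr5 rose by 1.45 to 1.49 times, and Ash2l and Men1 fell by 1.37 and 1.38 times. Thus 3 of the 10 members were higher, 2 were lower and 5 did not pass an edgeR quasi-likelihood test at a Benjamini-Hochberg adjusted p under 0.05. Among all genes tested in this comparison, 30.9% passed (19.4% higher and 11.5% lower), so the count of 5 in 10 is read against that share. The median log2 difference of the members was 0.38, against 0.12 for all genes. Scaling by library size alone moved the median of all genes to 0.0018 and the share of calls that were higher from 62.9% to 45.5%. With trimmed-mean factors kept, a fit on the H2A.Z line alone gave 0.0056 and 48.6%. The median of all genes was 0.0016 without Mll2 WT 2, 0.0025 without Mll2 KO 1 and 0.0026 without Mll2 KO 2. It was 0.12 to 0.14 without any other library, so it depended on which Mll2 libraries were in the fit. In pooled oocytes, fewer cells holding a transcript and less of it in each cell cannot be told apart.

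Dpy30 encodes the small dimeric subunit that binds ASH2L and completes the catalytic core. Its level was 511 and 504 CPM in control libraries, against 715 and 763 CPM under the DKO label. Both labelled libraries lay above both controls. The log2 difference was 0.54 ± 0.10 (SE, n = 2 and 2), with an edgeR adjusted p of 0.00074. This call held in each of 14 alternative fits, where the adjusted p ran up to 0.0211. Its difference was still 0.42 after subtracting the median of all genes.

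Ash2l encodes the partner of DPY30 in the core, which with RBBP5 contacts the methyltransferase domain. It read 55.6 and 54.2 CPM in controls, against 41.7 and 38.7 CPM under the DKO label. The groups did not overlap, and the direction was opposite to that of Dpy30. The log2 difference was -0.45 ± 0.11 (SE, n = 2 and 2; edgeR adjusted p 0.00784), or -0.57 after subtracting the median of all genes. The call was lost when H2A.Z control 1 (adjusted p 0.0688), H2A.Z control 2 (0.0513) or labelled DKO library 2 (0.0862) was left out of the edgeR fit.

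Wdr5 encodes a beta-propeller protein that binds the methyltransferase and RBBP5 and that also serves complexes outside the family. Its level rose from 69.0 and 73.3 CPM to 109 and 103 CPM, without overlap. The log2 difference was 0.58 ± 0.18 (SE, n = 2 and 2; edgeR adjusted p 0.0292). In this fit the spread of each gene is shared by all 4 groups. The SE of Wdr5 therefore also reflects the Mll2 KO libraries, which read 123 and 207 CPM. By adjusted p, Wdr5 was the least firm of the 3 higher calls. It did not pass with relative log expression factors (adjusted p 0.0553), with library size alone (0.101), or without H2A.Z control 1 (0.136), H2A.Z control 2 (0.0930), labelled DKO library 1 (0.131), labelled DKO library 2 (0.0825) or Mll2 WT 2 (0.138), all by edgeR. Rbbp5, which encodes the remaining core subunit, read 42.1 and 38.2 CPM in controls, against 47.3 and 45.3 CPM under the DKO label. Its log2 difference of 0.21 ± 0.12 did not pass (edgeR adjusted p 0.230), although both labelled libraries lay above both controls.

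Men1 encodes menin, which is particular to the MLL1 and MLL2 complexes and joins the methyltransferase to LEDGF. Its level was low in this line, at 13.2 and 14.6 CPM in controls, against 10.6 and 9.49 CPM under the DKO label. The groups did not overlap, and the log2 difference was -0.46 ± 0.16 (SE, n = 2 and 2; edgeR adjusted p 0.0343). The edgeR call was lost without H2A.Z control 1 (adjusted p 0.0823), H2A.Z control 2 (0.216), labelled DKO library 1 (0.0846), labelled DKO library 2 (0.204) or Mll2 WT 1 (0.0555). Psip1 encodes LEDGF, the chromatin reader bound by menin. It read 236 and 226 CPM in controls, against 233 and 238 CPM under the label, and the 2 groups overlapped. Its log2 difference was 0.03 with a 95% interval of -0.17 to 0.23.

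Wdr82 encodes the subunit that links SET1A and SET1B to RNA polymerase II early in transcription. It rose from 60.3 and 59.3 CPM to 88.6 and 84.9 CPM. The 2 control libraries were nearly equal, and both labelled libraries lay above them. The log2 difference was 0.54 ± 0.14 (SE, n = 2 and 2; edgeR adjusted p 0.00941), and it did not pass without H2A.Z control 1 (0.0588), H2A.Z control 2 (0.0744), labelled DKO library 1 (0.0742) or Mll2 WT 2 (0.0683). Cxxc1, whose product CFP1 brings SET1 complexes to CG-rich DNA, read 10.8 and 10.5 CPM in controls, against 14.9 and 13.1 CPM under the label. That log2 difference of 0.40 ± 0.18 did not pass (edgeR adjusted p 0.0971).

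The last 2 members also lay higher under the DKO label without passing. Hcfc1, which encodes the cell-cycle co-regulator HCF1 found in SET1 and MLL1 and MLL2 complexes, read 6.77 and 7.49 CPM in controls, against 9.76 and 9.07 CPM in labelled libraries (log2 difference 0.40 ± 0.18, edgeR adjusted p 0.102). Paxip1, which encodes PTIP of the MLL3 and MLL4 complexes, read 9.88 and 10.8 CPM against 14.5 and 12.01 CPM (log2 difference 0.35 ± 0.18, edgeR adjusted p 0.146). Both were among the lowest members, and their SE was larger than that of Dpy30.

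**Figure D2:**
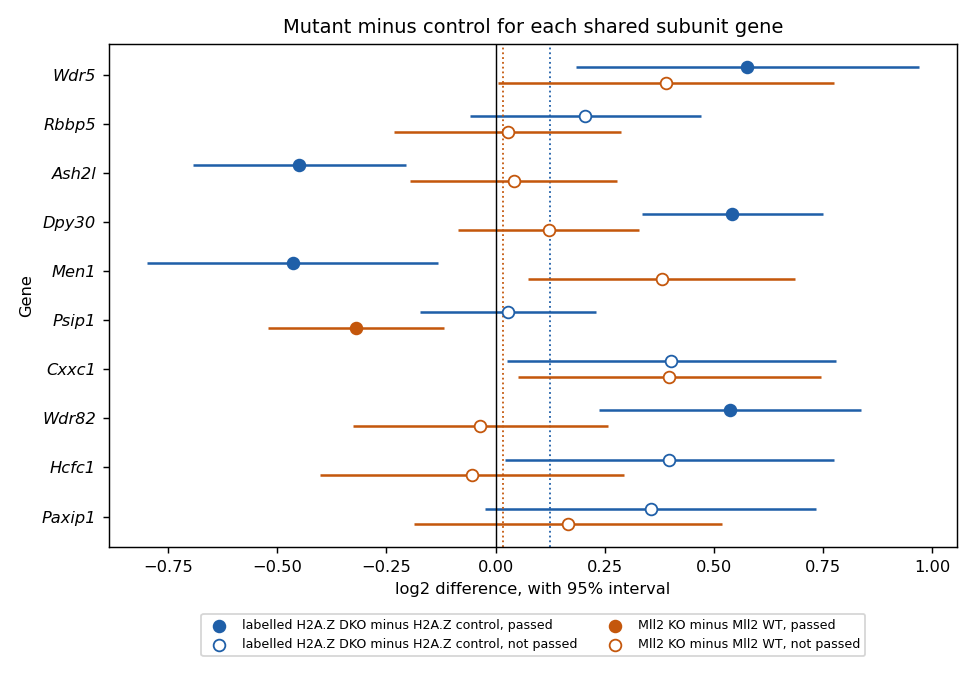
Log2 difference of each gene between mutant and control (horizontal axis) with its 95% interval, blue for the libraries labelled DKO and orange for Mll2 KO; filled points passed the edgeR test and open points did not. In blue 3 genes passed above 0 and 2 below it, beside 30.9% of all genes tested. In orange Psip1 alone passed, below 0, beside 30.6% of all genes tested.

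In Mll2 KO oocytes, in which Kmt2b fell 4.68 times, 9 of the 10 members did not pass and 1, Psip1, fell. Among all genes tested, 30.6% passed in this comparison (14.4% higher and 16.2% lower). The members' median log2 difference was 0.08, against 0.02 for all genes. With library size alone the median of all genes was 0.14, and the share of calls that were higher went from 47.1% to 62.9%. Psip1 was at 414 and 418 CPM in Mll2 WT libraries, against 324 and 343 CPM in Mll2 KO. Both KO libraries lay below both WT libraries, and the fall of 1.25 times gave a log2 difference of -0.32 ± 0.09 (SE, n = 2 and 2; edgeR adjusted p 0.0184). The edgeR call was lost with library size alone (log2 difference -0.20, adjusted p 0.109), with a fit on the Mll2 line alone (0.0965), and without Mll2 WT 1 (0.0859) or Mll2 WT 2 (0.0841).

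The Psip1 gene (chr4, 83455680 to 83486459, minus strand of mm10) overlaps Snapc3 on the opposite strand over 11997 bp. Snapc3, which encodes a subunit of the small nuclear RNA activating complex, read 34.6 and 41.3 CPM in Mll2 WT libraries, against 25.5 and 22.9 CPM in Mll2 KO. It therefore moved the same way, with a log2 difference of -0.65 ± 0.13 (edgeR adjusted p 0.00166). The sources used here do not say whether strand was used in counting, and without strand reads from bases that both transcripts hold cannot be told apart. The 11997 bp count whole gene spans, introns included. The longest stretch aligned between a Psip1 transcript and a Snapc3 transcript (a retained intron) was 226 bases, beside 3934 bases of merged Psip1 exons. The part of Snapc3 reads in the Psip1 difference was not tested. Psip1 also has a near copy, the processed pseudogene Gm15773 (95.8% identity over 1447 aligned bases), which the count table does not list.

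The core genes showed no called change in Mll2 KO. Dpy30 read 514 and 489.6 CPM in WT, against 552 and 539 CPM in KO, without overlap, and its log2 difference of 0.12 had a 95% interval of -0.09 to 0.33. Ash2l read 62.4 and 63.9 CPM against 67.7 and 62.3 CPM, and its interval was -0.20 to 0.28. Rbbp5 read 46.7 and 49.4 CPM against 45.4 and 52.5 CPM, with an interval of -0.23 to 0.29. For Ash2l and Rbbp5 the WT values lay inside the KO range. The intervals are not limits of detection, and changes of the sizes they hold remain possible.

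For Wdr5 and Wdr82 the 2 KO libraries gave different readings. Wdr5 read 128 and 124 CPM in WT, against 123 and 207 CPM in KO, so that KO library 1 lay just below the WT libraries and KO library 2 far above them. Its log2 difference of 0.39 ± 0.18 did not pass (edgeR adjusted p 0.116), although it did with no filter on low counts (0.0079). Without KO library 1 it was 0.73 and passed (edgeR adjusted p 9.7e-07), and without KO library 2 it was -0.076 and did not (0.597). Wdr82 read 138 and 141 CPM in WT, against 111 and 162 CPM in KO, one library on each side. Its log2 difference was -0.04 ± 0.14 (edgeR adjusted p 0.863), and without KO library 2 it was -0.38 and passed as lower (0.00432), and without KO library 1 it was 0.22 and did not (0.0532).

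Men1 and Cxxc1 lay higher in both KO libraries than in both WT libraries without passing. Men1 read 28.9 and 27.1 CPM in WT, against 33.9 and 38.9 CPM in KO (log2 difference 0.38 ± 0.14, edgeR adjusted p 0.0561). Cxxc1 read 29.5 and 23.7 CPM in WT, against 30.5 and 39.5 CPM in KO (log2 difference 0.40 ± 0.16, edgeR adjusted p 0.0765). These 2 genes were close to the threshold, and whether they passed differed with the scaling and with the libraries in the fit. With library size alone Men1 (adjusted p 0.0200) and Cxxc1 (0.0314) both passed as higher by edgeR, as they did without KO library 1 (0.00843 and 0.00335), and Men1 also passed with relative log expression factors (0.0490). Hcfc1 read 15.4 and 15.2 CPM in WT, against 14.0 and 15.5 CPM in KO, and Paxip1 read 23.3 and 20.3 CPM against 21.6 and 27.3 CPM, both overlapping and neither passing.

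The change in the H2A.Z line was set against that in the Mll2 line by an interaction contrast, which tests the difference of the 2 log2 differences and in which no control library is shared. With the labels as given, Men1, Ash2l and Dpy30 passed and the other 7 members did not. Among all genes 19.5% passed this contrast (12.9% higher and 6.68% lower). With library size alone, the share of these calls that were higher went from 65.8% to 37.0%. Which members passed rests on the DKO label, which H2afz and H2afv go against. With the 2 groups of the H2A.Z line exchanged, a contrast added after the data were seen, 3 members passed by edgeR and 38.8% of all genes did. They were Wdr5 (-0.97, adjusted p 0.00936), Cxxc1 (-0.80, 0.0156) and Dpy30 (-0.66, 0.00137), while Men1 (0.08, 0.782) and Ash2l (0.41, 0.0544) did not pass.

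As labelled, Men1 lay lower under the DKO label and higher in Mll2 KO than in the respective controls. The difference between the lines was -0.84 ± 0.21 on the log2 scale (edgeR adjusted p 0.0112), and it did not pass without H2A.Z control 2 (0.0753) or labelled DKO library 2 (0.0652). Ash2l differed by -0.49 ± 0.16 (edgeR adjusted p 0.0417), and its call was lost with no filter on low counts (0.0658) and when any H2A.Z or Mll2 WT library was left out (0.0630 to 0.166). Dpy30 differed by 0.42 ± 0.14 (edgeR adjusted p 0.0425), and it did not pass with relative log expression factors (0.0763), with library size alone (0.382) or without any 1 of the H2A.Z or Mll2 WT libraries (0.0959 to 0.176), while DESeq2 gave an adjusted p of 0.105. Wdr82 missed the threshold with a difference of 0.57 ± 0.20 (edgeR adjusted p 0.0525). It passed with no filter (0.00436) and without Mll2 KO 2 (0.79, edgeR adjusted p 5.22e-05), as did Wdr5 (0.53, 0.00285) and Psip1 (0.31, 0.0379).

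Ratios of raw counts within a library do not depend on how libraries are scaled. The 3 pairs given here were chosen after their values were seen, so they are descriptions. There were 9.18 and 9.31 counts of Dpy30 for each count of Ash2l in the H2A.Z controls and 17.1 and 19.7 in the libraries labelled DKO, while the Mll2 line stayed between 7.66 and 8.66 in all 4 libraries. The products of these genes bind each other, and the ratio of their transcripts in the labelled libraries lay above that in all 6 others. For Wdr82 and Men1, subunits of different complexes, the ratio was 4.58 and 4.07 in H2A.Z controls, 8.32 and 8.95 under the DKO label, 4.78 and 5.21 in Mll2 WT and 3.27 and 4.15 in Mll2 KO. The ratio of Men1 to Psip1, whose products bind each other, was 0.0559 and 0.0644 in H2A.Z controls, 0.0456 and 0.0399 under the DKO label, 0.0698 and 0.0649 in Mll2 WT, and 0.105 and 0.114 in Mll2 KO. It was thus lowest in the libraries labelled DKO and highest in Mll2 KO, without overlap with the controls of either line.

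**Figure D3:**
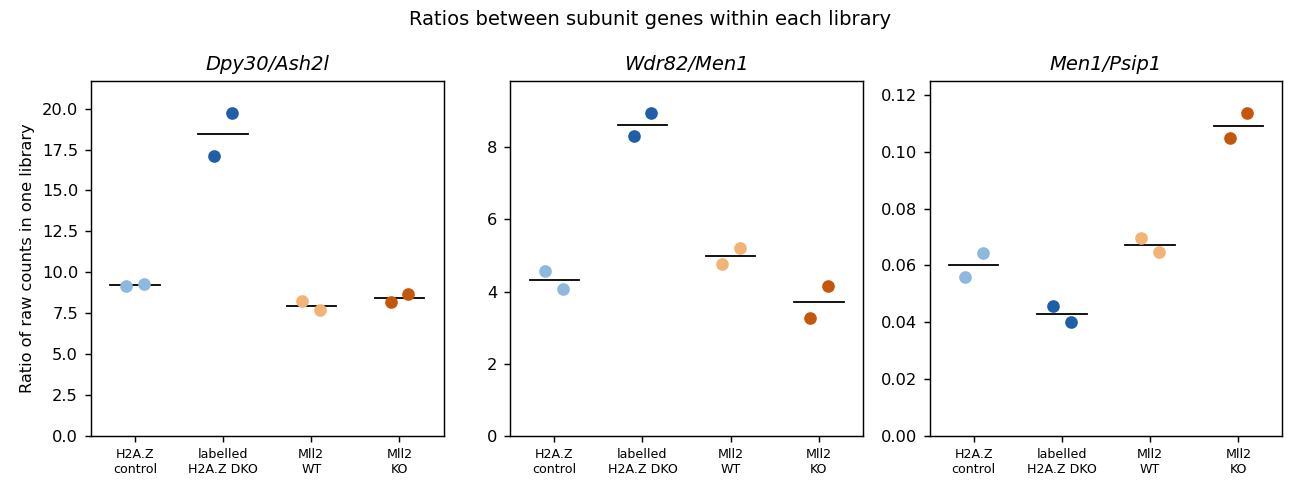
Ratio of raw counts of 2 genes within each library (vertical axis from 0, no unit); points are libraries and lines are group means. Dpy30 to Ash2l rises from 9.18 and 9.31 in H2A.Z controls to 17.1 and 19.7 in the libraries labelled DKO, and Men1 to Psip1 is lowest under that label and highest in Mll2 KO.

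The members differed widely in level once counts were divided by exon length (CPM per kb of merged exons). In Mll2 WT the order was Dpy30 at 444, Psip1 at 106, Wdr5 at 43.6, Wdr82 at 37.3, Ash2l at 17.9, Rbbp5 at 13.0, Cxxc1 at 10.1, Men1 at 9.17, Paxip1 at 3.73 and Hcfc1 at 1.85 CPM per kb. Cxxc1 and Men1 overlapped between their libraries in that group, and all other neighbours in the order were separate. In the H2A.Z controls the order was the same except that Men1 (4.55) stood above Cxxc1 (4.05), again with Dpy30 (449) first and Hcfc1 (0.862) last. Under the DKO label Rbbp5 (12.6) stood above Ash2l (11.4) and Cxxc1 (5.35) above Men1 (3.30), with no overlap in either pair, the reverse of both orders in the controls of the line. In Mll2 KO the libraries of Wdr5 (57.1) and Wdr82 (36.4) overlapped, as did those of Cxxc1 (13.4), Rbbp5 (13.3) and Men1 (11.9). DPY30, the smallest gene product of the core, thus had by far the most abundant transcript in each group.

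**Figure D4:**
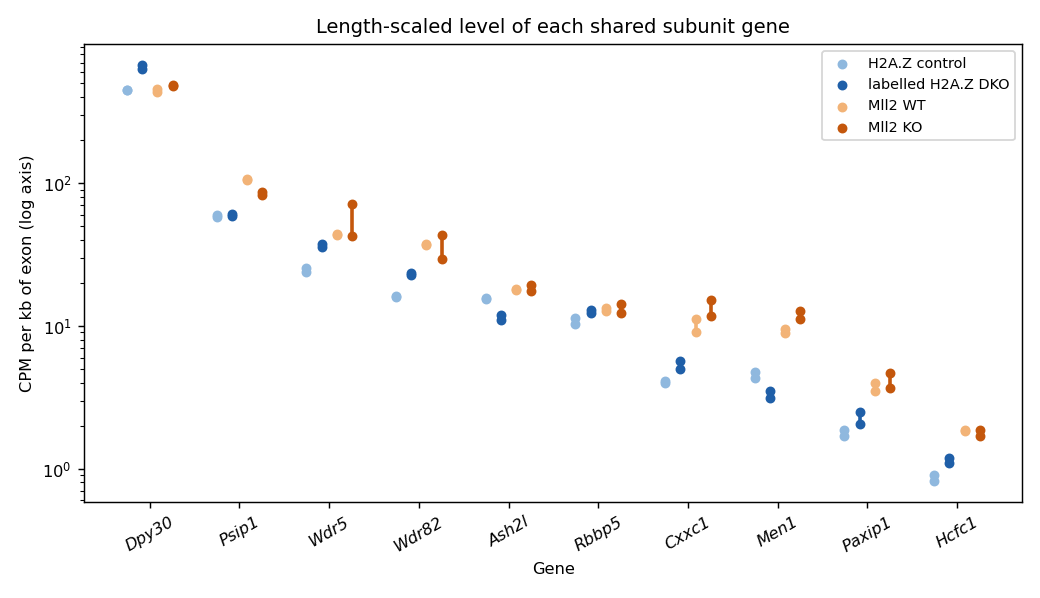
Level of each gene in CPM per kb of exon (vertical log axis) by group; the 2 points joined by a bar are the 2 libraries of a group. Dpy30 is highest (444 in Mll2 WT) and Hcfc1 lowest (1.85 in Mll2 WT) in each group, and most other genes lie lower in both H2A.Z groups than in the Mll2 groups.

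The controls of the lines differed in most members. Of the 10, 7 were lower in H2A.Z control than in Mll2 WT oocytes, 0 were higher and 3 (Rbbp5, Ash2l and Dpy30, all of the core) did not pass, against 44.3% of all genes called in this comparison (19% higher and 25.3% lower). Cxxc1 differed most, at -1.32 ± 0.17 on the log2 scale (edgeR adjusted p 1.8e-05), followed by Wdr82 at -1.22 ± 0.14 (5.8e-06). The other called members, Hcfc1, Paxip1, Men1, Psip1 and Wdr5, had log2 differences of -1.10, -1.07, -1.01, -0.85 and -0.82. Dpy30 differed by 0.02 with a 95% interval of -0.19 to 0.22. Rbbp5 and Ash2l passed as lower when Mll2 KO 1 (edgeR adjusted p 0.0183 and 0.0430) or Mll2 KO 2 (0.0184 and 0.0417) was left out of the shared fit, and Rbbp5 also with library size alone (0.0447). Line, strain background and batch cannot be told apart in this comparison, so levels are set side by side between lines only as a description.

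Beyond the members, 55 genes linked to H3K4 methylation were listed, and 54 of them had enough counts to be tested. Under the DKO label 18 were higher and 3 lower, beside 30.9% of all genes called (19.4% higher and 11.5% lower), and the median log2 difference was 0.18 against 0.12 for all genes. In Mll2 KO 8 were higher and 5 lower, beside 30.6% of all genes called (14.4% higher and 16.2% lower), and the median was 0.06 against 0.02. Kdm5d, a Y-linked demethylase gene, was the untested one, at 0 counts in every library. Leaving out each library in turn, 8 of these calls under the DKO label held in all 8 edgeR fits (Setd1a, Setd1b, Ube2a, Ing1, Kansl3, Zc3h4, Wdr5b and Hcfc2) and 13 were lost in at least 1. For the 13 the highest adjusted p ran from 0.0710 (Kmt2d) to 0.287 (Bod1l), and Pagr1a was lost in each fit. In Mll2 KO the calls for Kmt2b, Kdm5b, Wdr61, Ing1 and Kansl3 held in all 8 fits, and the other 8 were lost in at least 1, with a highest adjusted p of 0.0553 (Zc3h4, without Mll2 WT 2) to 0.309 (Cdc73, without Mll2 WT 1). Each of the 13 was lost without at least 1 library of the H2A.Z line, and each of the 8 without at least 1 Mll2 WT library. Some were lost in most fits. In Mll2 KO the calls for Bod1, Cdc73 and Leo1 held in 1 of the 8 fits each and that for Ogt in 2. Under the DKO label those for Kmt2b and Spin1 held in 3 each. Values given below for these genes are from the fit on all 8 libraries unless stated.

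Under the DKO label, where 19.4% of all genes tested were higher, 5 of the 6 methyltransferases that the members serve rose. They were Setd1b (log2 difference 1.08 ± 0.22), Setd1a (0.89 ± 0.19), Kmt2d (0.51 ± 0.12), Kmt2b (0.49 ± 0.15) and Kmt2a (1.72 ± 0.46, on 10 and 35 counts in controls and 91 and 51 under the label), with edgeR adjusted p from 0.00152 to 0.0180. Kmt2c, the gene for MLL3, had a difference of 0.06 and did not pass. The Kmt2b call was lost with library size alone (adjusted p 0.0872) and in fits without 1 H2A.Z library or without Mll2 WT 2 (0.0601 to 0.153). The Kmt2a call was lost without H2A.Z control 1 (0.121) or labelled DKO library 1 (0.154), and the Kmt2d call without H2A.Z control 1 (0.0710) or Mll2 WT 2 (0.0532). In Mll2 KO, where 30.6% of all genes passed, only Kmt2b itself did, at -2.23 ± 0.15 (edgeR adjusted p 2.7e-08). Both SET1 genes and their partner Wdr82 thus read higher under the DKO label, while their partner Cxxc1 did not pass. Of the MLL1 and MLL2 partners, Men1 read lower and Psip1 did not pass, while Kmt2a and Kmt2b were called higher. As given above, the calls for Wdr82 and Men1 were lost without some of the libraries.

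Of 5 other subunits of single complexes, 3 were higher under the DKO label and 2 in Mll2 KO. Among all genes tested, 19.4% were higher under the DKO label and 14.4% in Mll2 KO. Bod1, a SET1B-associated gene in the list, rose under the DKO label (0.41) and in Mll2 KO (0.35), as did Pagr1a, which encodes a partner of PTIP (0.34 and 0.43), and Bod1l rose under the DKO label (0.36). Kdm6a and Ncoa6, of the MLL3 and MLL4 complexes, passed in neither. Among 5 tested demethylases 0 passed under the DKO label, beside 30.9% of all genes. Kdm5b, which removes H3K4 trimethylation, fell in Mll2 KO (-1.005 ± 0.22, edgeR adjusted p 0.00310), where 16.2% of all genes were lower.

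The machinery of H2B ubiquitination and the PAF1 complex, which acts before H3K4 methylation during transcription, had 2 of 11 genes higher, 2 lower and 7 not called under the DKO label, a share near the 30.9% of all genes. Ube2a, a ubiquitin-conjugating enzyme gene, rose by 0.45 on the log2 scale. Of the PAF1 complex genes, Wdr61 rose by 0.61, Paf1 and Leo1 fell by 0.35 and 0.36, and Ctr9, Cdc73 and Rtf1 were not called. In Mll2 KO Wdr61 rose by 1.24 and Cdc73 by 0.44, and Leo1 fell by 0.30. Among 10 genes for readers of H3K4 trimethylation, Ing1 (0.44), Phf8 (0.39) and Spin1 (0.35) rose under the DKO label, and Ing1 (0.51) rose in Mll2 KO. These stand beside 19.4% of all genes higher under the DKO label and 14.4% higher in Mll2 KO.

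WDR5 and HCF1 also belong to the NSL acetyltransferase complex, and WDR82 to the PTW/PP1 phosphatase and the Restrictor complex, which limits transcription of non-coding RNA. Of 7 NSL genes Kansl3 alone passed under the DKO label, beside 30.9% of all genes. Kansl3 went from 7.19 and 7.97 CPM to 21.6 and 17.2 CPM (log2 difference 1.35 ± 0.18, edgeR adjusted p 4.9e-05). It rose in Mll2 KO too (0.88), where Phf20 and Ogt fell by 0.41 and 0.33. Of 6 genes for partners of WDR82, Zc3h4 (1.17), Ppp1cb (0.59) and Ppp1r10 (0.50) rose under the DKO label together with Wdr82 itself. Among all genes, 19.4% were higher under that label. Zc3h4, the Restrictor subunit, rose in Mll2 KO as well (0.91), on 20.6 and 19.4 CPM in WT, against 27.2 and 48.1 CPM in KO.

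Among close relatives of members, Wdr5b, a paralogue of Wdr5, moved against it. It read 3.83 and 4.98 CPM in H2A.Z controls, against 0.843 and 0.712 CPM under the DKO label, a log2 difference of -2.50 ± 0.35 (edgeR adjusted p 8.9e-05) on 15 to 125 counts. In Mll2 KO the difference of -0.55 did not pass. Hcfc2, the paralogue of Hcfc1, rose under the DKO label from 28.6 and 28.3 CPM to 43.1 and 40.5 CPM (0.55 ± 0.13). Hdgfrp2 (Hdgfl2), a relative of Psip1, rose in Mll2 KO, with 23.2 and 20.6 CPM in WT against 32.03 and 42.2 CPM in KO (0.76 ± 0.16, edgeR adjusted p 0.00262), while Psip1 fell.

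**Figure D5:**
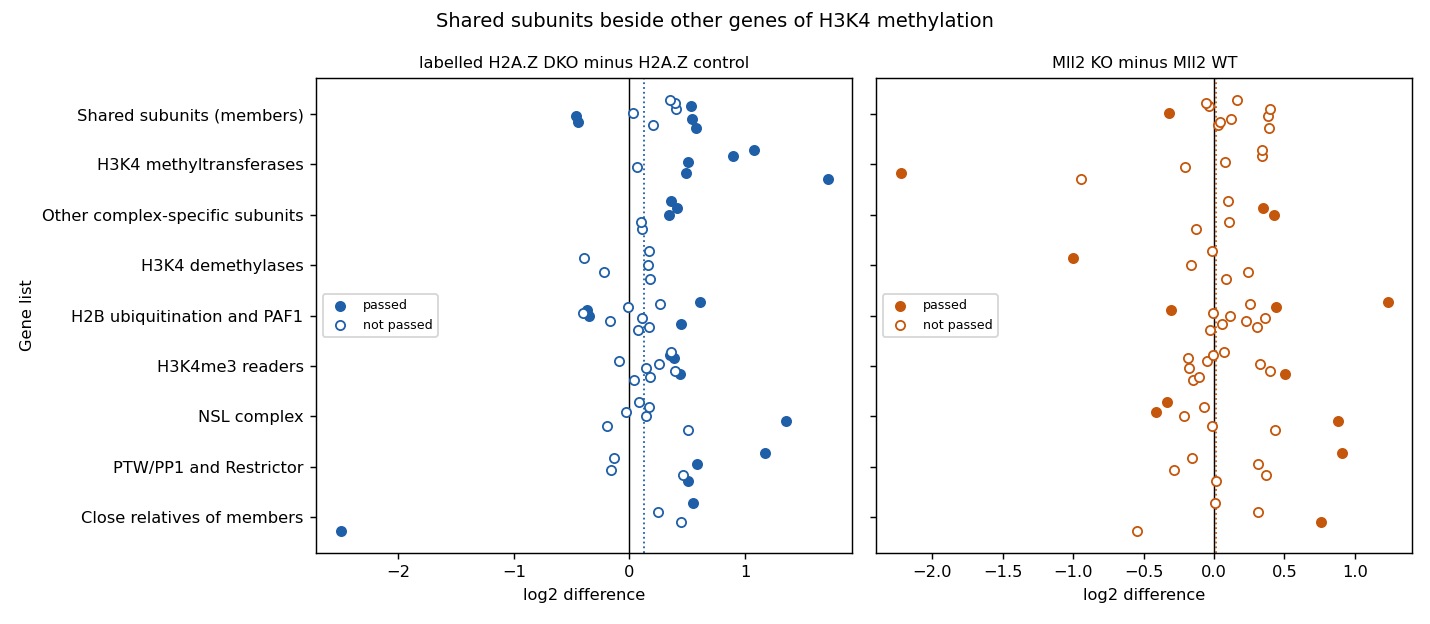
Log2 difference (horizontal axis) of each tested gene by list (vertical axis) for the libraries labelled DKO (left) and Mll2 KO (right); filled points passed the edgeR test, open points did not, and dotted lines are medians of all genes. On the left 5 of 6 methyltransferases passed above 0, beside 19.4% of all genes tested, and Wdr5b at -2.50 is the lowest point. On the right Kmt2b at -2.23 is the lowest.

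For the 3 members with the smallest p, the genes most like them over the 8 libraries were taken from 12970 tested genes by Pearson's r of log2 CPM. The libraries share groups and lines, so r mostly repeats group levels and is given without a test. Nearest to Dpy30 were Spg21 (0.997), Pax6 (0.994) and Ddit4l (0.988). A high r does not mean a like size of change. Under the DKO label the log2 difference was 0.49 for Spg21, 2.21 for Pax6 and 3.74 for Ddit4l, against 0.54 for Dpy30. Nearest to Ash2l were Aldh18a1 (0.992), Pnpla2 (0.990) and Rnf180 (0.987). Nearest to Wdr82 were Tab2 (0.998), Fam8a1 (0.996) and Tdrd5 (0.996). An r over 0.95 was reached by 59 genes for Dpy30, 128 for Ash2l and 742 for Wdr82, so the pattern of Wdr82, low in both H2A.Z groups and high in both Mll2 groups, was the commonest of the 3.

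Positions on mm10 from GENCODE M21 are spread over 10 chromosomes. Dpy30 lies at chr17:74299474-74323944 (minus strand), Ash2l at chr8:25815996-25847694 (minus), Wdr5 at chr2:27515157-27536535 (plus) and Rbbp5 at chr1:132477365-132505659 (plus). Men1 lies at chr19:6334979-6340891 (plus), Wdr82 at chr9:106170928-106191139 (plus), Cxxc1 at chr18:74216124-74221496 (plus), Hcfc1 at chrX:73942792-73966357 (minus) and Paxip1 at chr5:27740080-27791691 (minus). Wdr82 contains the microRNA gene Mirlet7g, which had 0 counts in every library. Processed pseudogenes that could take or give reads and that the count table does not list are Gm11977 for Rbbp5 (96.8% identity over 790 aligned bases), Gm13462 for Ash2l (90.4% over 974) and Gm2059 for Dpy30 (91.8% over 291).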

How the data were processed

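RNA was measured in 8 libraries of about 20 pooled full-grown oocytes, with 200 pg of cDNA taken from a SMART-Seq v4 preparation into Nextera XT, per the labels' protocols. The authors deposited whole-number raw counts per gene symbol for 35976 symbols (8787 with no counts). The submitters' processing notes name build mm10 and the tools RSEM 1.3.1, STAR 2.7.3 and Trim Galore 0.6.4. What each tool did, the annotation, the use of strand and any rounding are not given in those sources. Rounded estimates would share reads between near copies.

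Groups were those of the labels, each mutant against the controls of its own line. Counts were fitted with edgeR 4.0.16 (R 4.3.3) using all 8 libraries, 4 group means, filterByExpr by group (16847 genes), TMM factors, robust quasi-likelihood tests, and Benjamini-Hochberg adjustment over all genes tested at 0.05. The fit had 4 residual degrees of freedom and a common dispersion of 0.0152. SE came from the F statistic, and log2 CPM used a prior count of 2. Between 2 libraries of a group, r across genes was 0.984 to 0.989, and no pair agreed within counting noise. Replicate differences correlated by 0.0395 (H2A.Z line) and -0.0221 (Mll2 line) between a mutant and its controls, so numbers were not used as pairs.

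Alternatives were relative log expression factors, library size alone, no filter, DESeq2 1.42.0 (Wald test, no independent filtering), the compared line alone, a replicate block, and leaving out each library. The interaction contrast was also computed with the 2 H2A.Z groups exchanged, chosen after seeing the data. The scripts were tested on simulated counts. Positions and merged exon lengths came from GENCODE M21 (basic transcripts), near copies from BLAST 2.17.0 (at least 90% identity over 200 bases), and promoter windows from RefSeq. The 10 members, the gene lists and the marker lists were chosen with earlier results of these data known. Named genes were all members, the targeted genes, listed genes called in a mutant comparison, the 6 methyltransferases, the 3 genes most correlated with each of the 3 members of smallest p (no predicted, pseudogene or microRNA symbols), and genes overlapping a member.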

Additional observations from a re-analysis of the deposited data

Results flagged for a closer look

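The genes here are those whose mutant effect differed between the lines by the interaction contrast of edgeR (effect in the H2A.Z line, libraries labelled DKO minus control, less effect in the Mll2 line, KO minus WT), among the members and the other named genes. Of the members, 3 were among them, beside 19.5% of all genes tested that passed this contrast (12.9% higher and 6.68% lower). Men1 differed by -0.84 on the log2 scale (adjusted p 0.0112), Ash2l by -0.49 (0.0417) and Dpy30 by 0.42 (0.0425). Among the methyltransferases, Kmt2b differed by 2.72 (4.78e-07), the gene knocked out in the Mll2 line, and Kmt2a by 2.66 (0.0460) on 3 to 91 counts per library. Of the PAF1 complex genes, Paf1 differed by -0.47 (0.0453) and Wdr61 by -0.63 (0.0490). The H3K4 reader and demethylase gene Phf8 differed by 0.57 (0.0260). The paralogues Wdr5b and Hcfc2 differed by -1.95 (0.00848) and 0.55 (0.0405). The targeted genes H2afz and H2afv differed by 2.28 (1.83e-06) and 1.24 (2.60e-05), both being higher under the DKO label. Snapc3, which overlaps Psip1, differed by 0.93 (0.00243). The calls for Kmt2b, H2afz, H2afv and Snapc3 held in all 13 alternatives of this contrast set out at first, and each of the other 9 was lost in at least 1. All of these differences rest on the DKO label.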

How the results depend on the processing

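Apart from 1 exchange of labels given last, each fit was repeated under 14 alternatives for the mutant comparisons and 13 for the other contrasts, where fitting 1 line alone gives no value. Under the DKO label 3 members were higher and 2 lower; both scalings other than TMM gave 2 higher, and leaving out 1 library gave 1 to 3 higher and 0 to 2 lower. Over all genes, 3269 were higher and 1929 lower in that comparison; library size alone gave 2063 higher, the line alone 3485 lower, and leaving out 1 library 1496 to 3188 higher and 1115 to 3381 lower. In Mll2 KO the member counts (0 higher, 1 lower) became 1 higher with relative log expression factors and with no filter, 2 higher and 0 lower with library size alone, 0 lower with the line alone, and 0 to 3 higher and 0 to 2 lower without 1 library; all genes (2428 higher, 2730 lower) ran from 990 to 3351 and from 1691 to 3468 without 1 library, with 3418 higher and 2013 lower for library size alone. In the interaction contrast (1 higher, 2 lower) members higher were 0 with relative log expression factors, library size alone and DESeq2, and 2 with no filter, where 1 was lower; without 1 library they were 0 to 4 higher and 0 to 2 lower. All genes there (2165 higher, 1126 lower) became 1096 and 1866 with library size alone, and 918 to 2596 and 578 to 2178 without 1 library. Between controls, 7 to 9 members were lower and 0 higher in every fit, and genes higher (3200) ran from 1840 to 3823 without 1 library. The replicate block, whose numbers do not pair the samples, gave 3 members higher and 1 lower under the DKO label (Men1 adjusted p 0.0521), 0 and 1 in Mll2 KO, 1 and 1 in the interaction contrast, and 0 and 7 between controls, where it called 1793 genes higher; Dpy30 between controls was -0.027. Signs turned only for differences that had not passed. Under the DKO label, Psip1 was -0.014 with relative log expression factors, -0.094 with library size alone, -0.017 with DESeq2, -0.096 with the line alone and -0.094 to 0.062 without 1 library; Kmt2c was -0.060, -0.063 (line alone) and -0.061 to 0.12. In Mll2 KO, library size alone gave 0.091 for Wdr82 and 0.070 for Hcfc1, and leaving out 1 library gave -0.076 to 0.73 for Wdr5, -0.12 to 0.14 for Rbbp5, -0.0084 to 0.059 for Ash2l, -0.38 to 0.22 for Wdr82, -0.17 to 0.029 for Hcfc1, -0.053 to 0.33 for Paxip1, -0.11 to 0.22 for Kmt2d and -0.056 to 0.63 for Setd1a. In the interaction contrast, library size alone gave -0.064 for Wdr5, -0.069 for Rbbp5, -0.24 for Cxxc1 and -0.057 for Paxip1, Cxxc1 was -0.063 with relative log expression factors and -0.065 with DESeq2, and leaving out 1 library gave -0.28 to 0.53 for Wdr5, -0.055 to 0.26 for Rbbp5, -0.30 to 0.12 for Cxxc1 and -0.10 to 0.32 for Paxip1. Between controls Dpy30 was -0.058 with library size alone, -0.0047 with no filter and -0.034 to 0.048 without 1 library. Where 1 library of a group was left, it was assumed to vary like the other groups. Such fits had fewer libraries, and some also moved the median of all genes. Under the DKO label that median went from 0.12 to 0.0016 without Mll2 WT 2. The cause of the changes between fits was not tested. With 2 libraries a group, log2 differences of 0.21 (Rbbp5) to 0.40 (Cxxc1 and Hcfc1) under the DKO label were not called. With the 2 groups of the H2A.Z line exchanged, a contrast added after the data were seen, 0 members and 2887 genes were higher and 3 members and 3646 genes lower. By construction most signs turned: Wdr5 -0.97, Rbbp5 -0.23, Ash2l 0.41, Dpy30 -0.66, Men1 0.085, Cxxc1 -0.80, Wdr82 -0.50, Hcfc1 -0.34, Paxip1 -0.52, H2afz -4.85, H2afv -1.62, Kmt2a -0.77, Paf1 0.24, Phf8 -0.20, Wdr5b 3.04 and Hcfc2 -0.56.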
